A study of Homo sapiens with 6 samples.

Results

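The amyloid precursor protein family and its secretases, 8 of the 27408 genes in the table, were followed through the 6 RNA sequencing libraries of the series. They were chosen by symbol and comprise the substrates APP, APLP1 and APLP2, the alpha-secretases ADAM10 and ADAM17, the beta-secretase BACE1 with its relative BACE2, and the presenilin PSEN2. Together they hold 37 of the 59128 RefSeq transcripts. The libraries come from PANC-1 and MIA-PaCa2, human cell lines long established from pancreatic cancers. Each carried an ESRP1 construct, an ESRP2 construct or the LPCX control, with 1 library for each of the 6 combinations and no replicate within a combination. The labels do not say whether a construct line is a clone or a pool of cells. ESRP1 and ESRP2 are RNA-binding proteins that direct exon choice in epithelial cells, and the stated question was what they do in the progression of this cancer. Values are TPM, a transcript's length-scaled share of the library, which adjust for transcript length, so levels of different genes can be set side by side. The depth behind them is unknown.

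APP, APLP1 and APLP2 are single-pass membrane proteins that are cut in sequence. ADAM10 and ADAM17 shed the ectodomain in the non-amyloidogenic route, BACE1 cuts at the beta site, and gamma-secretase, whose catalytic subunit is a presenilin, then cleaves the remaining stub within the membrane. APP and APLP2, but not APLP1, have an alternative exon that encodes a Kunitz-type protease inhibitor domain. Neurons mostly skip this exon in APP, while most other cells include it.

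The coding exons printed here carry the isoform results below, and their sequences come from GENCODE transcripts on GRCh38, written in the direction of transcription. Exon numbers follow the longest paired transcript of each gene. Exon 7 of APLP2 (chr11:130123612-130123779, plus strand) and exon 7 of APP (chr21:26000015-26000182, minus strand) both have 168 nucleotides, or 56 codons, and encode most of the Kunitz domain. They are shown because one was alternative here and the other was included nearly always. Capitals mark bases that are the same at the same position of both, 109 of 168 (64.9%).
APLP2 exon 7: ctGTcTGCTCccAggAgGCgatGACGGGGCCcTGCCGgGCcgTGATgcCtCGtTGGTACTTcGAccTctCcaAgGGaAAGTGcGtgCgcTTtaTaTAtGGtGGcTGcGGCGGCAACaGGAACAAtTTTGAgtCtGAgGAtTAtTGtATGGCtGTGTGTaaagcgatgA
APP exon 7: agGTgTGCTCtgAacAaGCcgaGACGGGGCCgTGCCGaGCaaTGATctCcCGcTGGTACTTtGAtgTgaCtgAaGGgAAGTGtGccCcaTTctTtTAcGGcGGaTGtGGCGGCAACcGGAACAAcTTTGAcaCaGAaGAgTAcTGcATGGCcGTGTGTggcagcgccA
When APLP2 exon 7 is skipped, exon 6 joins exon 8 with the frame kept. The pair of junctions below shows the end of exon 6 in lower case and, in capitals, the start of exon 7 or of exon 8.
APLP2 with exon 7: ctcatgatgtcaaagCTGTCTGCTCCCAGG
APLP2 without exon 7: ctcatgatgtcaaagTTCCTCCAACTCCTC
The remaining alternative exons are exon 8 of APP (chr21:25997360-25997416, minus strand, 57 nucleotides) and exon 14 of APLP2 (chr11:130137256-130137291, plus strand, 36 nucleotides). They are given because the first separated the lines and the second was low among paired transcripts.
APP exon 8: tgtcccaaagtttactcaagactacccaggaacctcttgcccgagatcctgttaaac
APLP2 exon 14: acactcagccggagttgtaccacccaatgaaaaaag

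The introduced genes matched the labels. ESRP1 was at 491 TPM in PANC-1 ESRP1 and 367 TPM in MIA-PaCa2 ESRP1, against at most 0.261 TPM in the other 4 libraries. ESRP2 was at 308 TPM in PANC-1 ESRP2, with 37.7 TPM in PANC-1 ESRP1, against 34.8 TPM in PANC-1 LPCX, and at 197 TPM in MIA-PaCa2 ESRP2, against 0.0704 TPM in MIA-PaCa2 LPCX. Of 7 duct-type epithelial markers, KRT8, KRT18, KRT19 and SOX9 were at 99.7 TPM or more in every library, with a summed marker level of 1916 to 2121 TPM in PANC-1 and 3529 to 4383 TPM in MIA-PaCa2. KRT7 was low in both lines, at 1.57 to 2.00 TPM in PANC-1 and 0.176 to 0.475 TPM in MIA-PaCa2. EPCAM was listed at 0 in all 3 MIA-PaCa2 libraries, and CDH1 reached at most 0.173 TPM there. The 5 neuronal markers summed to 22.0 to 28.4 TPM in PANC-1, most of it MAP2, and to 9.14 to 11.8 TPM in MIA-PaCa2, most of it SYT1. The 4 leukocyte markers summed to 296 to 365 TPM in PANC-1 and 21.2 to 24.9 TPM in MIA-PaCa2, nearly all of it CD68, with PTPRC at 0.563 TPM or less. The 4 fibroblast markers summed to 66.4 to 108 TPM in PANC-1 and 123 to 132 TPM in MIA-PaCa2. In PANC-1 nearly all of it was COL1A1, which was at 0.723 TPM or less in MIA-PaCa2. In MIA-PaCa2 nearly all of it was COL1A2, which was at 0.0593 TPM or less in PANC-1. DCN and LUM were at 0.0821 TPM or less in every library, and the endothelial markers summed to 3.20 TPM or less. Of the acinar and islet markers INS and GCG were listed at 0 in all 6. The part of these marker levels in the results was not tested.

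Overexpression of either ESRP left the levels of the 8 genes close to those of LPCX. In such bulk libraries, fewer cells with a message and less message per cell cannot be told apart. APP (chr21:25880550-26171128, minus strand), the precursor of amyloid beta, was at 664 TPM with ESRP1 and 697 TPM with ESRP2 in PANC-1, against 643 TPM with LPCX. In MIA-PaCa2, APP was at 1078 TPM with ESRP1 and 944 TPM with ESRP2, against 1029 TPM with LPCX. The LPCX value thus lay below both ESRP values in PANC-1 and between them in MIA-PaCa2. APLP2 (chr11:130069894-130144805, plus strand), the widely expressed paralog, was at 836 and 804 TPM with ESRP1 and ESRP2 in PANC-1, against 789 TPM with LPCX. In MIA-PaCa2 it was at 601 and 534 TPM, against 569 TPM. APLP1 (chr19:35868574-35879792, plus strand), the paralog best known from neurons, was at 53.6 and 57.9 TPM in PANC-1, against 47.5 TPM, and at 14.7 and 16.9 TPM in MIA-PaCa2, against 14.9 TPM. As for APP, both ESRP values of APLP2 and APLP1 lay above LPCX in PANC-1 and to either side of it in MIA-PaCa2.

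Among the secretases, ADAM10 (chr15:58588809-58749707, minus strand), the main constitutive alpha-secretase, was at 69.5 TPM (ESRP1) and 71.6 TPM (ESRP2) in PANC-1, against 57.4 TPM with LPCX. In MIA-PaCa2 it was at 101 and 121 TPM, against 102 TPM. ADAM17 (chr2:9488486-9555830, minus strand), which also releases tumour necrosis factor, was at 42.3 and 43.2 TPM in PANC-1, against 37.0 TPM, and at 55.1 and 49.7 TPM in MIA-PaCa2, against 47.7 TPM. ADAM17 was therefore lowest with LPCX in both lines. BACE1 (chr11:117285698-117316256, minus strand) was at 7.63 and 7.81 TPM in PANC-1, against 7.33 TPM, and at 15.2 and 17.7 TPM in MIA-PaCa2, against 15.99 TPM. BACE2 (chr21:41168160-41282530, plus strand), which also cuts within the amyloid-beta sequence, was at 3.33 and 3.15 TPM in PANC-1, against 2.55 TPM, and at 5.25 and 5.50 TPM in MIA-PaCa2, against 6.04 TPM. PSEN2 (chr1:226870616-226903668, plus strand) was at 30.1 and 32.0 TPM in PANC-1, against 27.8 TPM, and at 25.6 and 23.3 TPM in MIA-PaCa2, against 22.5 TPM, lowest with LPCX in both lines.

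**Figure D1:**
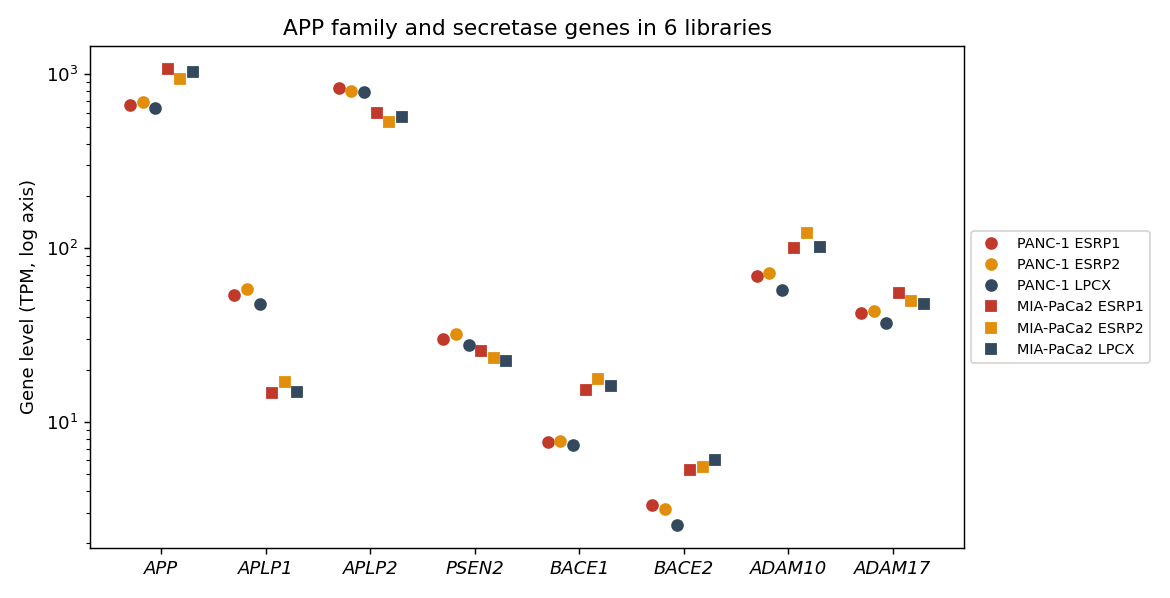
Level of each of the 8 genes in TPM on a log axis, 1 point per library, circles for PANC-1 and squares for MIA-PaCa2, coloured by construct. APP and APLP2 lie at 534 TPM or more and BACE2 at 6.04 TPM or less. For every gene the 3 points of one line lie apart from those of the other, as for 79.4% of all genes tested.

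As log2 ratios of TPM plus 1, the 7 genes with at least 5 TPM in PANC-1 lay between 0.05 and 0.27 for ESRP1 and between 0.03 and 0.32 for ESRP2, all above LPCX. The median of these members was 0.11 and 0.19, beside 0.09 and 0.10 over all genes, of which 68.8% and 67.2% were also positive. In MIA-PaCa2 the 8 genes lay between -0.17 and 0.20 for ESRP1, with 4 positive, and between -0.12 and 0.26 for ESRP2, with 5 positive. Their medians were 0.03 and 0.05, beside 0.04 and 0.05 over all genes. No member passed 2-fold in any of the 4 comparisons, where 1.51% and 1.96% of genes did in PANC-1 with ESRP1 and ESRP2, and 1.28% and 1.62% in MIA-PaCa2. Nor did any pass 1.5-fold, where 3.24% and 4.39% of genes did in PANC-1 and 2.92% and 3.98% in MIA-PaCa2. The 2 ratios of a line share its LPCX library.

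**Figure D2:**
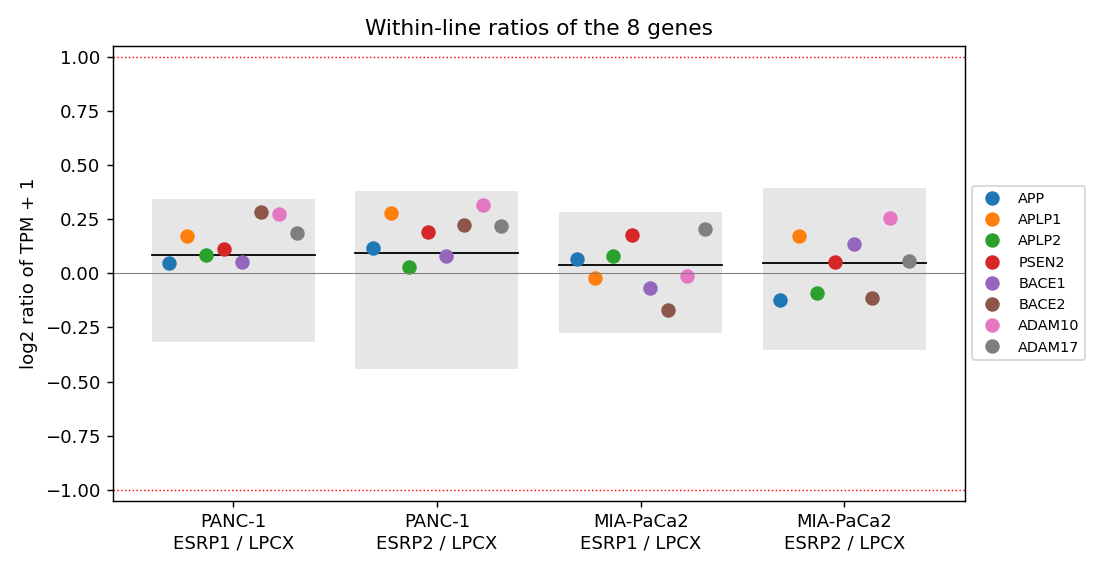
log2 ratio of TPM plus 1 of each ESRP library over the LPCX library of its line, 1 point per gene. Grey bars span the 5th to 95th percentiles of all genes with at least 5 TPM in either library, black lines are their medians and dotted lines mark 2-fold. All 8 genes lie inside the grey bars in each comparison.

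Over both lines, limma was fitted with construct and cell line as terms. What it takes as error is how far an effect in one line departs from that in the other, over 2 residual degrees of freedom. This error is then drawn toward a trend fitted over all features. The SE and p-values thus rest on 5.42 degrees of freedom for genes, 4.96 for transcripts and 6.41 for exons. At an adjusted p of 0.05 it called 0 of the 8 genes for ESRP1 (0 with an unadjusted p under 0.05) and 0 for ESRP2 (2 with an unadjusted p under 0.05). The share called over all 11829 genes was 0.00845% for ESRP1 and 0.0169% for ESRP2, and the share with an unadjusted p under 0.05 was 6.93% and 13.8%. The 2 genes were ADAM10, with a log2 change of 0.29 for ESRP2 (SE 0.0915, limma adjusted p = 0.332), and APLP1, with 0.23 (SE 0.0844, limma adjusted p = 0.348), or 0.15 without PANC-1 LPCX. For ESRP1 the largest change was that of ADAM17, at 0.20 (SE 0.0804, limma adjusted p = 0.658). Between ESRP1 and ESRP2 the 8 changes ran from -0.15 to 0.11, with 0 called by limma, 0 at an unadjusted p under 0.05 and 0.00845% called over all genes.

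Among the members' exons, the widest departure from LPCX in percentage points that both lines shared was that of APLP2 exon 7, although it did not pass the test across exons. Inclusion of this Kunitz exon, printed above, was 42.2% (ESRP1) and 31.9% (ESRP2) in PANC-1, against 22.9% with LPCX. In MIA-PaCa2 it was 60.4% with ESRP1 and 46.8% with ESRP2, against 39.5% with LPCX. In both lines the order was ESRP1 above ESRP2 above LPCX. The differences from LPCX were 19.4 points for ESRP1 and 9.09 points for ESRP2 in PANC-1, and 20.9 and 7.28 points in MIA-PaCa2. Inclusion is the TPM of transcripts holding the exon, in percent of all paired transcripts that span its position.

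The ESRP1 differences combined more message with the exon and less without it. APLP2 transcripts with exon 7 summed to 320 TPM with ESRP1 and 230 TPM with ESRP2 in PANC-1, against 156 TPM with LPCX. Those without it summed to 437 and 489 TPM, against 527 TPM. In MIA-PaCa2, transcripts with the exon summed to 346 and 243 TPM, against 214 TPM, and those without it to 227 and 277 TPM, against 327 TPM. Only in MIA-PaCa2 ESRP1, among the 6 libraries, did the form with the Kunitz exon outweigh the form without it.

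**Figure D3:**
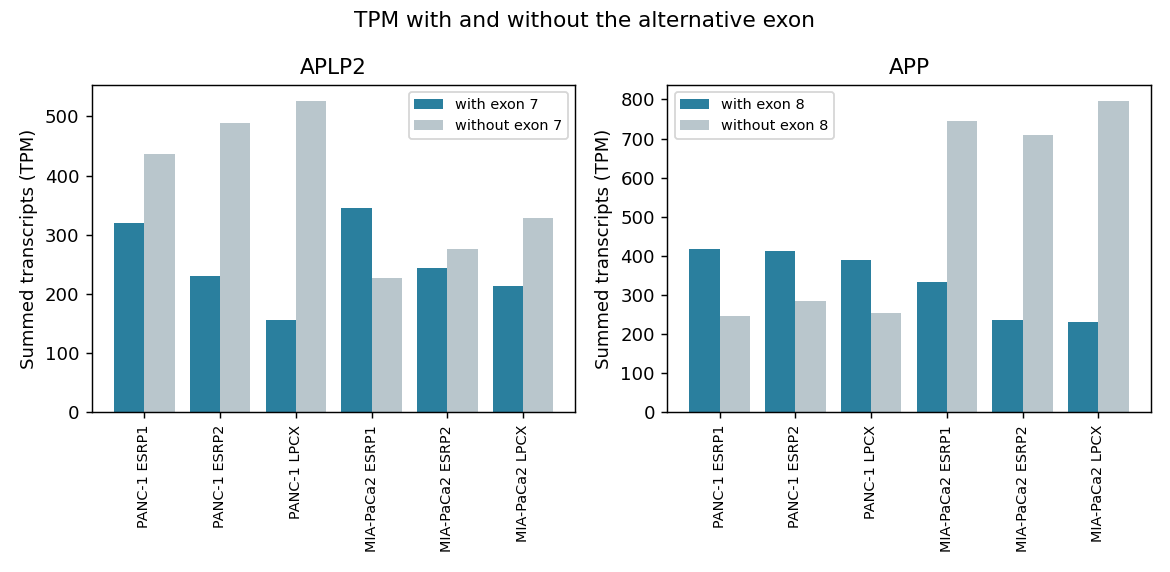
Summed TPM of transcripts with (blue) and without (grey) exon 7 of APLP2, left, and exon 8 of APP, right, in the 6 libraries. In each line the blue APLP2 bar is highest with ESRP1 and lowest with LPCX, while the bars of APP separate the lines.

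Some APLP2 transcripts could not be paired with a GENCODE model and so with exon 7. Paired transcripts held 86.6% to 90.5% of APLP2 TPM in PANC-1 and 95.2% to 97.5% in MIA-PaCa2. If all unpaired TPM lacked the exon, or all held it, inclusion would lie between 38.2% and 47.7% for PANC-1 ESRP1, against 19.8% to 33.2% for PANC-1 LPCX, ranges that do not meet. For PANC-1 ESRP2 the range was 28.5% to 39.2%, which meets that of LPCX. In MIA-PaCa2 the ranges were 57.5% to 62.3% for ESRP1 and 45.6% to 48.1% for ESRP2, against 37.6% to 42.4% for LPCX, and none of these meet.

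Set against other exons, the APLP2 exon was 1 of 52 exons in 39 genes, among 3701 measured in all libraries, that were higher by at least 10 points in both lines with ESRP1 (1.41%). By the smaller of its differences in the 2 lines it ranked 19th. With ESRP2, 71 exons in 54 genes passed in both lines (1.92%), and the APLP2 exon, with a smaller difference of 7.28 points, was not among them. A difference of 10 points upward in a single comparison was more common, at 5.58% of exons in PANC-1 and 7.11% in MIA-PaCa2 with ESRP1, and at 6.07% and 8.32% with ESRP2. In either direction, 1 of 3 member exons in PANC-1 and 1 of 2 in MIA-PaCa2 passed 10 points with ESRP1, where 11.1% and 13.0% of exons did. With ESRP2, 0 of 2 did in each line, where 12.2% and 14.6% did. On log2 odds of inclusion, limma over both lines gave 1.26 for ESRP1 (SE 0.211, adjusted p = 0.1003, higher in 2 of 2 lines) and 0.55 for ESRP2 (SE 0.211, adjusted p = 0.533, higher in 2 of 2 lines). Neither passed, where 0.432% and 0.486% of exons did. With both ESRPs averaged it was 0.90 (SE 0.182, limma adjusted p = 0.132), where 0.784% passed. The pseudocount decided the ESRP1 call, with limma adjusted p = 0.0292 at 2 TPM, beside a range over all alternatives of 0.0292 to 0.9999. ESRP1 exceeded ESRP2 by 0.72 (SE 0.211, limma adjusted p = 0.727), which did not pass either, and 0 exons were called in that comparison.

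**Figure D4:**
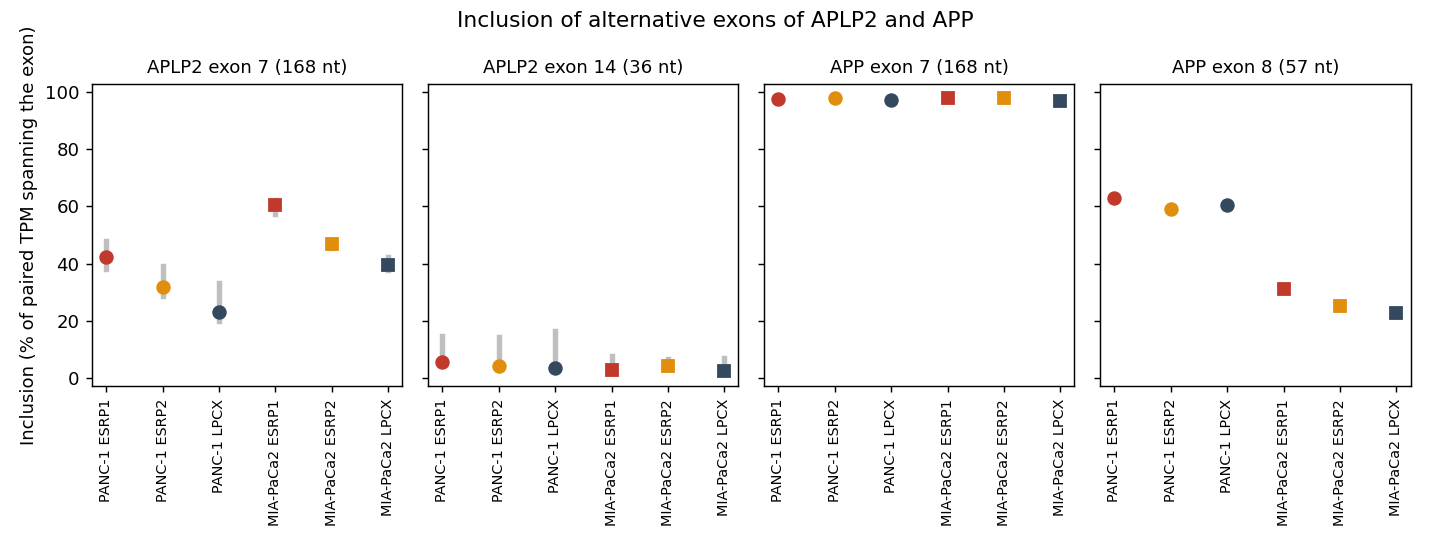
Inclusion, in percent of paired TPM spanning the exon, of exons 7 and 14 of APLP2 and exons 7 and 8 of APP in each library (circles PANC-1, squares MIA-PaCa2). Grey bars show the range if all unpaired TPM lacked or held the exon. APLP2 exon 7 ranges from 22.9% to 60.4%, APP exon 7 stays above 96% and APP exon 8 splits by line.

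Single transcripts of APLP2 carried this difference. NM_001142276, which has exon 7 and codes for 751 residues, made up 33.2% (ESRP1) and 25.0% (ESRP2) of APLP2 in PANC-1, against 16.9% with LPCX. In MIA-PaCa2 it made up 55.0% and 41.8%, against 35.6%. Its log2 odds were 1.21 above LPCX for ESRP1 (SE 0.215, limma adjusted p = 0.590) and 0.54 for ESRP2 (SE 0.215, limma adjusted p = 0.781). NM_001142277, which lacks exon 7 and codes for 695 residues, was lower in turn, at 52.1% and 60.6% in PANC-1, against 66.5%, and at 37.4% and 51.6% in MIA-PaCa2, against 57.3%. The unpaired NM_001328682 held 7.54% and 8.27% in PANC-1, against 11.5%, and at most 2.23% in MIA-PaCa2. Exon 14 had an inclusion of 5.54% and 3.99% in PANC-1, against 3.41%, and of 2.78% and 4.10% in MIA-PaCa2, against 2.23%. If all unpaired TPM held it, these would be 14.5% and 14.2% in PANC-1, against 16.4%, so the order of the PANC-1 libraries is not fixed.

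The homologous exon of APP was included nearly always. Inclusion of APP exon 7 was 97.7% (ESRP1) and 97.9% (ESRP2) in PANC-1, against 97.3% with LPCX, and 97.9% and 98.0% in MIA-PaCa2, against 96.9%. So close to 100%, differences in points are small, with at most 1.13 points between an ESRP library and its LPCX library. APP transcripts without the exon summed to 15.6 and 14.5 TPM with ESRP1 and ESRP2 in PANC-1, against 17.5 TPM with LPCX, and to 22.5 and 18.6 TPM in MIA-PaCa2, against 31.9 TPM. As for APLP2, skipping forms were thus highest with LPCX in both lines, and a difference between the paralogs was not tested. Exon 8 of APP was at 62.9% (ESRP1) and 59.0% (ESRP2) in PANC-1, against 60.5% with LPCX, and at 31.0% and 25.0% in MIA-PaCa2, against 22.5%. The largest of these differences was 8.45 points, for MIA-PaCa2 ESRP1, while PANC-1 ESRP1 differed by 2.39 points. Over both lines its log2 odds were 0.39 above LPCX for ESRP1 (SE 0.227, limma adjusted p = 0.777). This value ranged from 0.20 without MIA-PaCa2 LPCX to 0.58 without PANC-1 LPCX, with 0.22 without MIA-PaCa2 ESRP1 and 0.55 without PANC-1 ESRP1.

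Shares of transcripts moved by at least 10 points in other members too, in a pattern that was less regular across lines. Of the member transcripts measured, 5 of 13 moved in PANC-1 with ESRP1 (13.2% of all transcripts did), 3 of 14 in PANC-1 with ESRP2 (14.6%), 4 of 11 in MIA-PaCa2 with ESRP1 (15.6%) and 4 of 12 in MIA-PaCa2 with ESRP2 (17.5%). Transcripts of 1 gene are not independent, since a gain in one is a loss in another. Over both lines limma called 0 of 14 member transcripts for ESRP1 and 0 for ESRP2, with 2 and 3 at an unadjusted p under 0.05. Over all 12965 transcripts it called 0.00771% for ESRP1 and 0% for ESRP2, and 5.71% and 6.36% had an unadjusted p under 0.05.

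PSEN2, the presenilin followed here, had its minor transcript NM_012486 at 29.5% (ESRP1) and 37.8% (ESRP2) in PANC-1, against 25.0% with LPCX. In MIA-PaCa2 it was at 15.6% with ESRP1 and 47.3% with ESRP2, against 21.0% with LPCX. ESRP2 was thus the highest library in each line. The transcript codes for 447 residues where the other form, NM_000447, which holds the rest, codes for 448. Its log2 odds for ESRP2 were 1.24 above LPCX (SE 0.422, limma adjusted p = 0.752, higher in 2 of 2 lines), which did not pass. Its size rested on single libraries, at 1.86 once the PANC-1 ESRP2 library was left out and 0.62 once the MIA-PaCa2 one was. In APLP1, NM_001024807 was at 24.9% (ESRP1) and 24.3% (ESRP2) in PANC-1, against 24.5% with LPCX, and at 23.4% and 40.4% in MIA-PaCa2, against 39.8%. MIA-PaCa2 ESRP1 therefore had the share seen in PANC-1. The rest of APLP1 was in NM_005166. Both APLP1 accessions are paired with the same GENCODE transcript, so the difference between them could not be placed.

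BACE1 was spread over 6 transcripts at low levels. The 501-residue form NM_012104 held 83.9% (ESRP1) and 65.0% (ESRP2) in PANC-1, against 63.7% with LPCX, and 96.9% and 79.9% in MIA-PaCa2, against 93.8%. The remainder lay in forms at 2.67 TPM or less, such as NM_001207048, which was at 0.343 and 1.92 TPM in PANC-1, against 1.07 TPM, and at 0 and 2.67 TPM in MIA-PaCa2, against 0 TPM. Its log2 odds for ESRP2 were 1.73 above LPCX (SE 0.558, limma adjusted p = 0.739), a larger fitted change than that of APLP2 exon 7, at far lower TPM. It depended on the pseudocount, at 2.88 with 0.1 TPM and 0.86 with 2 TPM, and ran from 0.93 without MIA-PaCa2 LPCX to 2.54 without PANC-1 LPCX, with 0.998 without MIA-PaCa2 ESRP2. NM_001207049 held at most 19.5% of BACE1, NM_138972 at most 10.5% and NM_138973 at most 5.16%, with each maximum in a PANC-1 library. The antisense gene BACE1-AS was at 3.73 and 5.13 TPM in PANC-1, against 3.33 TPM, and at 2.41 and 3.53 TPM in MIA-PaCa2, against 3.73 TPM. Whether strand was used in quantification is not given in the sources used here, so reads of BACE1 and BACE1-AS may not be separable where they overlap. ADAM10 kept 94.0% to 96.4% in NM_001110, with the rest in NM_001320570, BACE2 at least 95.9% in NM_012105, and ADAM17 has 1 transcript in the table, NM_003183.

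**Figure D5:**
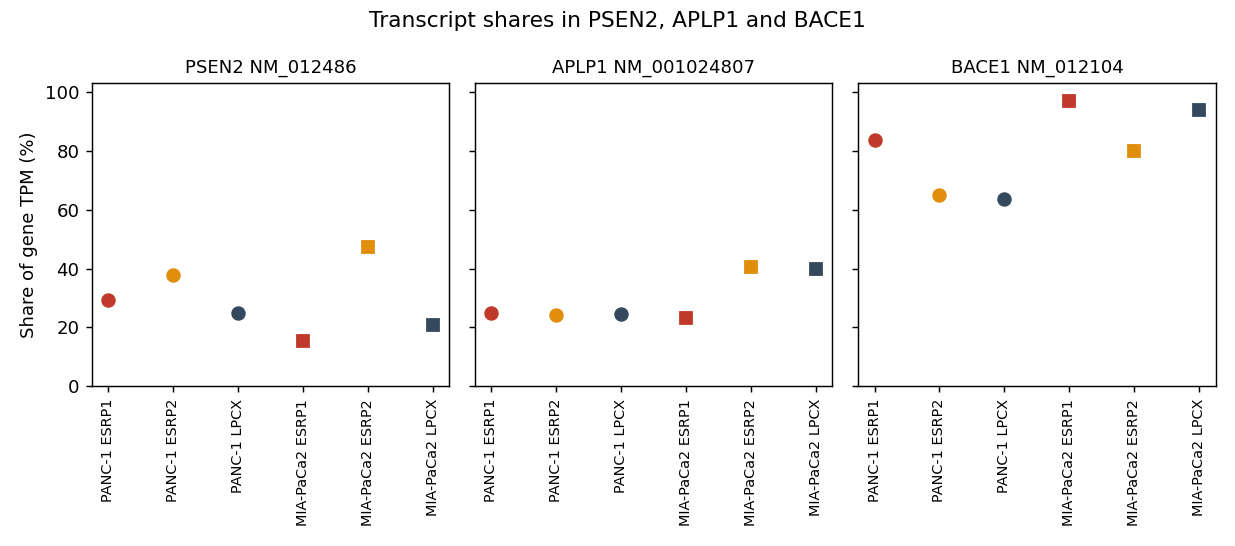
Share of gene TPM, in percent, of NM_012486 in PSEN2, NM_001024807 in APLP1 and NM_012104 in BACE1 in each library (circles PANC-1, squares MIA-PaCa2). In PSEN2 the ESRP2 library is highest in each line, and in APLP1 the MIA-PaCa2 ESRP1 library sits at the level of PANC-1.

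For every member the means of the lines lay further apart than the constructs within a line. APP averaged 668 ± 27.4 TPM in PANC-1 and 1017 ± 67.6 TPM in MIA-PaCa2 (SD over 3 constructs each), a log2 change of -0.60 (SE 0.0777, limma adjusted p = 0.000819). APLP2 ran the other way, at 810 ± 23.9 TPM in PANC-1 and 568 ± 33.8 TPM in MIA-PaCa2 (0.51, SE 0.0621, limma adjusted p = 0.000637). APLP2 was therefore the most abundant of the 8 genes in PANC-1, and APP in MIA-PaCa2. Their sum with APLP1 was close in both lines, at 1479 to 1560 TPM in PANC-1 and 1495 to 1694 TPM in MIA-PaCa2, with APP making up 42.8% to 44.7% of it in PANC-1 and 63.2% to 63.8% in MIA-PaCa2. APLP1 averaged 53.0 ± 5.23 TPM in PANC-1 and 15.5 ± 1.24 TPM in MIA-PaCa2 (1.71, SE 0.0689, limma adjusted p = 1.18e-05), a 3.42-fold ratio of means.

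The secretases that act at the cell surface and at the beta site were lower in PANC-1. ADAM10 averaged 66.2 ± 7.70 TPM in PANC-1 and 108 ± 11.7 TPM in MIA-PaCa2, with a log2 change of -0.70 (SE 0.0747, limma adjusted p = 0.000379). ADAM17 averaged 40.9 ± 3.35 and 50.8 ± 3.82 TPM in PANC-1 and MIA-PaCa2 (-0.31, SE 0.0657, limma adjusted p = 0.00667). BACE1 averaged 7.59 ± 0.241 TPM in PANC-1 and 16.3 ± 1.25 TPM in MIA-PaCa2 (-1.01, SE 0.0808, limma adjusted p = 0.000123). BACE1 was thus the one member past 2-fold lower in PANC-1. BACE2 averaged 3.01 ± 0.404 TPM in PANC-1 and 5.60 ± 0.402 TPM in MIA-PaCa2 (-0.72, SE 0.133, limma adjusted p = 0.00366). It passed the filter of 5 TPM only through MIA-PaCa2, where it is high, so its direction was set by the filter and it is left out of the count of calls. PSEN2 was higher in PANC-1, at 30.0 ± 2.06 TPM, against 23.8 ± 1.60 TPM in MIA-PaCa2 (0.32, SE 0.0715, limma adjusted p = 0.00798).

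Of the 7 genes that reached 5 TPM in both lines, all 7 were called, 3 higher and 4 lower in PANC-1, and the libraries of the lines did not overlap for any of them. Among all genes tested 78.8% were called and 79.4% did not overlap, and 75.3% were called among those that reached 5 TPM in both lines. A difference between these lines is therefore the usual case, and the direction and size are the information. By size of change among all genes tested, APLP1 was at percentile 85.2 and BACE1 at 69.6. ADAM10, APP, APLP2, PSEN2 and ADAM17 were at percentiles 54.8, 48.7, 42.5, 28.4 and 27.5, so near or below the middle. The 3 libraries of a line are 1 line with 3 constructs, so the spread is that between constructs and not between independent cell lines. In PANC-1 the order of levels was APLP2, APP, ADAM10, APLP1, ADAM17, PSEN2, BACE1 and BACE2, where ADAM10 (57.4 to 71.6 TPM) and APLP1 (47.5 to 57.9 TPM) overlapped. In MIA-PaCa2 it was APP, APLP2, ADAM10, ADAM17, PSEN2, BACE1, APLP1 and BACE2, where BACE1 (15.2 to 17.7 TPM) and APLP1 (14.7 to 16.9 TPM) overlapped.

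The isoforms of APP separated the lines more sharply than its level. Median inclusion of exon 8 was 60.5% in PANC-1 and 25.0% in MIA-PaCa2, with log2 odds higher by 2.14 (SE 0.185, limma adjusted p = 0.00207). The 770-residue form NM_000484, with exons 7 and 8, held 60.2%, 56.8% and 58.8% of APP in PANC-1 with ESRP1, ESRP2 and LPCX, and 30.1%, 24.3% and 22.2% in MIA-PaCa2 (2.05, SE 0.187, limma adjusted p = 0.00895). The 751-residue form NM_201413, with exon 7 but not 8, held 33.3%, 37.5% and 35.97% in PANC-1 and 65.8%, 71.9% and 73.9% in MIA-PaCa2 (-2.12, SE 0.177, limma adjusted p = 0.00760). The main form of APP was thus the 770-residue one in PANC-1 and the 751-residue one in MIA-PaCa2. NM_201414, which lacks both exons and codes for the 695 residues of the form known from neurons, was at 12.6 to 15.7 TPM in PANC-1 and 16.7 to 30.3 TPM in MIA-PaCa2, a small part of APP in each.

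APLP2 exon 7 was lower in PANC-1 than in MIA-PaCa2, with medians of 31.9% and 46.8% and log2 odds of -1.03 (SE 0.172, limma adjusted p = 0.0113). PANC-1 ESRP1, at 42.2%, lay above MIA-PaCa2 LPCX, at 39.5%, so the libraries of the lines overlapped. The call ended without any 1 of 4 libraries, with limma adjusted p = 0.0512 without MIA-PaCa2 ESRP1, 0.0582 without MIA-PaCa2 LPCX, 0.0508 without PANC-1 ESRP1 and 0.0596 without PANC-1 LPCX. Of 3 member exons measured, 2 were called between the lines, where 23.5% of exons were. APLP2 exon 14, which was not called, met the floor of 5% inclusion only through PANC-1 ESRP1, at 5.54%. Of 14 member transcripts, 5 were called, where 17.3% of transcripts were. Besides both APP forms they were NM_001142276 (-1.28, SE 0.176, limma adjusted p = 0.0174) and NM_001328682 (2.95, SE 0.624, limma adjusted p = 0.0391) of APLP2 and NM_012104 of BACE1 (-1.91, SE 0.342, limma adjusted p = 0.0280). Removing any single library ended the last 3 calls. NM_001328682 met the filter of 10% of the gene only through PANC-1 LPCX, at 11.5%, and held at most 2.23% in MIA-PaCa2. Its direction was therefore set by the filter, and its call carries no weight in the count of 5. The call of NM_000484 ended without PANC-1 ESRP2 (limma adjusted p = 0.0501), while that of NM_201413 held with each library left out.

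Genes around the pathway, from 7 lists with 63 genes of which 52 were tested, were described in the same way. For ESRP1 and for ESRP2 limma called 0 of the 52 (3 and 6 at an unadjusted p under 0.05, where 6.93% and 13.8% of all genes were), with medians of 0.09 and 0.07 beside 0.06 over all genes for each. On log2 of TPM plus 1, no listed gene passed 2-fold within a line. Without the pseudocount, among genes with at least 5 TPM in either library compared, 1 did, CDH1, the epithelial cadherin, which ADAM10 sheds. Below that floor AREG and RECK also passed 2-fold. AREG in PANC-1 was at 0.584 TPM with ESRP1, against 1.58 TPM with LPCX. RECK in MIA-PaCa2 was at 0.533 and 0.353 TPM with ESRP1 and ESRP2, against 0.172 TPM. CDH1 was at 8.59 and 6.98 TPM with ESRP1 and ESRP2 in PANC-1, against 3.89 TPM with LPCX, a ratio of 2.21 for ESRP1, and was at or below 0.173 TPM in MIA-PaCa2. CDH1 thus met the floor of 5 TPM only through the ESRP libraries, where it is high, so the floor set the direction of this ratio. The share of all genes past 2-fold without the pseudocount is not given here.

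Between the lines 21 listed genes were called higher and 21 lower in PANC-1, at 43.1% higher and 35.6% lower over all genes. Of the 52, 13 reached 5 TPM in one line only, which sets their direction. Among the other 39, 13 were higher and 16 lower, or 74.4% called, beside 75.3% over all such genes, so the lists as a whole lay near the background. The counts by list that follow are over genes that reached 5 TPM in both lines. Both ADAM sheddases other than the members were lower in PANC-1, among them ADAM9 at 106 to 123 TPM in PANC-1 and 185 to 216 TPM in MIA-PaCa2. Of 7 regulators of ADAM10 and ADAM17, 4 were higher and 0 lower. TSPAN15, a tetraspanin partner of ADAM10, was at 319 and 311 TPM with ESRP1 and ESRP2 in PANC-1, against 286 TPM with LPCX, and at 42.2 and 23.8 TPM in MIA-PaCa2, against 45.5 TPM (3.06 between the lines, SE 0.195, limma adjusted p = 5.2e-05). That is a wider separation of the lines than for any of the 8 members.

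Of 4 gamma-secretase partners, 1 was higher and 1 lower in PANC-1. Of 7 APP adaptors, 1 was higher and 5 were lower, with APBB1, which binds the APP tail, at 11.7 and 12.9 TPM with ESRP1 and ESRP2 in PANC-1, against 8.58 TPM, and at 28.8 and 22.1 TPM in MIA-PaCa2, against 26.5 TPM. APBB1 lay above LPCX with both ESRPs in PANC-1 and to either side of it in MIA-PaCa2. Of 9 sorting genes 3 were higher and 4 lower, with the retromer subunit VPS35 at 58.9 to 70.0 TPM in PANC-1 and 97.7 to 111 TPM in MIA-PaCa2. Of 4 amyloid-beta degrading enzymes 1 was higher and 2 lower, the first being IDE, the insulin-degrading enzyme, at 39.8 to 45.8 TPM in PANC-1 and 20.7 to 23.6 TPM in MIA-PaCa2. Of 6 other shed substrates 3 were higher and 2 lower. Among the genes that passed through one line, RECK, a membrane inhibitor of metalloproteases, was at 19.4 to 25.1 TPM in PANC-1 and 0.172 to 0.533 TPM in MIA-PaCa2. ADAM8 was at 1.55 to 2.30 TPM in PANC-1 and 6.67 to 8.42 TPM in MIA-PaCa2, and the growth factor AREG at 0.584 to 1.58 TPM in PANC-1 and 206 to 219 TPM in MIA-PaCa2. APH1B, a scaffold subunit of gamma-secretase, was at 6.84 and 5.44 TPM with ESRP1 and ESRP2 in PANC-1, against 6.49 TPM, and at 3.41 and 2.38 TPM in MIA-PaCa2, against 3.67 TPM.

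The genes whose profile over the 6 libraries was most like that of APP, by root mean square difference of centred log2 TPM plus 1, were UBQLN2 (0.0243), MRPL16 (0.0253) and STAU1 (0.0331). Those most like APLP2 were EHD2 (0.0183), FBXO22 (0.0199) and GPS1 (0.0272). Both profiles are mainly the difference between the lines, which most genes have, so such closeness is a description of these 6 libraries only.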

How the data were processed

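Libraries were made with a TruSeq mRNA kit, per the labels' protocols. Salmon and GRCh38 (hg38) are named in the submitters' processing notes; for versions, annotation release and strand setting the sources used here give nothing. Deposited by the authors was a signal per RefSeq transcript, TPM, in 67792 lines, of which 8664 repeat a transcript with identical values. With the repeats a column sums to 1140623 to 1151937, without them to 1000000. The repeats were dropped. The column for MIA-PaCa2 ESRP2 is headed ESRP12, and that for MIA-PaCa2 LPCX has a misspelt line name, so these 2 were matched as the only ones remaining.

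TPM were summed per gene. Genes reaching 5 TPM in 2 or more libraries entered limma 3.58.1 with a trend, on log2 of TPM plus a pseudocount of 1. Transcript shares used log2 odds with a pseudocount of 0.5 TPM, for genes with at least 5 TPM in every library and at least 2 transcripts, and transcripts with at least 10% of the gene in a library. P-values were adjusted by Benjamini-Hochberg over all features at 0.05. The terms are construct and cell line, so the line is the block. Within a line, steps were 2-fold and 10 points, with no test. GENCODE release 29 models (GRCh38) were matched to RefSeq accessions (33 of the 37 members' transcripts); where several accessions share a GENCODE transcript, all were kept. Exons needed 5 TPM of spanning transcripts and an inclusion of at least 5% and at most 95% in some library. The limma fit of exons, its alternatives and those on the pairing were added after the data were seen. Each fit was tested on simulated data for ESRP1 against LPCX, with 200 features changed. The gene fit recovered 70.0% of 2-fold changes, and the exon fit 59.5% of 4-fold changes in odds. The transcript fit recovered 0.0% of 4-fold and 66.0% of 16-fold changes in odds. A transcript or exon that was not called may therefore still differ.

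Members and lists were chosen with earlier results of these data known. The text names the 8 members, their transcripts with at least 5% of the gene in a library (1 below it, NM_201414, was added for its known neuronal form), and from each list up to 3 genes with the largest mean ratio to LPCX; IDE, VPS35, RECK, ADAM8, ADAM9, CDH1, APH1B, APBB1, TSPAN15 and AREG are such genes. Alternatives were other scaling, pseudocounts, filters and steps, coding transcripts only, no block, and each library left out. Each combination is 1 library, so p-values measure the spread between these libraries only.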

Additional observations from a re-analysis of the deposited data

How the results depend on the processing

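The members' gene-level results were stable. In all 14 settings 0 members were called for either ESRP. Between the lines 8 were called in each setting except the filter of 5 TPM in all libraries, which removes BACE2 and left 7. Of all genes tested, 78.8% were called between the lines in the main setting. The 8 include BACE2, whose direction was set by the main filter. Without a replicate block (no cell line term) still 0 members were called for ESRP1 or ESRP2; without the construct term 8 were called between the lines at gene level and 1 exon in place of 2. No further paired analysis was possible because each combination has 1 library and no replicate number. Member transcripts called between the lines numbered 5, against 9 with a pseudocount of 2 TPM or with transcripts from 1% of the gene, and 1 to 2 with a library left out. The 5 include NM_001328682 of APLP2, whose direction was set by the main filter. Member exons called between the lines numbered 1 to 2 with a library left out. With a pseudocount of 2 TPM, 1 member exon was called for ESRP1 and 1 for either ESRP against LPCX, APLP2 exon 7 in both cases; its limma adjusted p for ESRP1 ran from 0.0292 to 0.9999 over the alternatives, the highest with no cell line term. At a step of 20 points the transcripts moved became 1 in PANC-1 ESRP1, 0 in PANC-1 ESRP2, 0 in MIA-PaCa2 ESRP1 and 2 in MIA-PaCa2 ESRP2, and the exons moved in PANC-1 ESRP1 became 0. Requiring 90% of a gene's TPM to be paired also left 0 exons there, since it removes APLP2. Of the other values recomputed, 297 kept their direction and their side of the threshold, 27 lost their call, 2 gained one and 0 reversed. The cause of these changes was not tested. With TPM alone the depth is unknown, which bears most on the BACE1 and BACE2 transcripts.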
